A study of Drosophila melanogaster with 23 samples.

Results

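Late acclimation of S2R+ cells to 14 °C was examined by comparing arrays hybridized with RNA from cells kept for 72 h at 14 °C (4 arrays) with those from cells kept for 24 h at 14 °C (5 arrays). These 9 samples were chosen by the time in their titles from a series of 23 arrays, and all 32162 distinct gene probes of the array were compared. S2R+ cells are an established line from Drosophila melanogaster embryos that resembles hemocytes, the blood cells of the fly. In every group cells were plated and kept at 25 °C for 36 h. The 72 h and 24 h cultures were then shifted to 14 °C, as were cultures of the 4 h (5 arrays) and 12 h (3 arrays) groups, whereas the 0 h group (3 arrays) was taken before the shift and the t12_25 group (3 arrays) after 12 h more at 25 °C. The 6 arrays of 0 h and t12_25 are called the 25 °C arrays below. No genetic change or drug was applied, and the study describes the replicates as biological. Such a line is a single, genetically rearranged cell population, so its values do not represent a fly tissue.

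A fly cannot hold its body temperature, and its cells meet a cool period with slower enzymes, stiffer membranes and a slower cell cycle. Transcripts that are still changing long after the downshift are of interest because early responses to the step in temperature and slower adjustments of growth, metabolism and proliferation can follow different courses. Cell cycle genes, glycolytic enzymes, enzymes of lipid turnover and heat shock chaperones were therefore followed as groups.

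Between 15566 and 18697 probes were well above background on each of the 9 arrays, and no spot was saturated. As a check of the cell type, the hemocyte regulators srp and ush had mean log2 intensities of 11.01 and 11.95 at 72 h, against 11.10 and 12.02 at 24 h. The muscle marker twi and the fat body marker Yp1 were well above background on none of the 9 arrays. Of 2 measured neuronal markers, however, 1 was well above background on all 9 arrays, and the measured germline marker was so on some of them. The groups differed in technical measures. The 23 arrays lay on 7 slides, and slide 2 was the only one with arrays of both times (72 h replicate 2 and 24 h replicate 5). The scanner software placed 72 h replicates 1, 2 and 3 outside its quality range, and none of the 24 h arrays. Negative control spots averaged a log2 intensity of 5.71 ± 0.38 (SD, n = 4) at 72 h and 5.06 ± 0.20 (SD, n = 5) at 24 h (two-sided exact permutation test, p = 0.0238). The part of these differences in the results was not tested. Some genes followed by name lost their call with a term for slide in the model or without the 3 arrays. This is given beside the gene or at the end.

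Few probes differed by a large amount between 72 h and 24 h. With limma, 60 of 32162 probes (0.187%) passed a Benjamini-Hochberg adjusted p of 0.05 and a fold change of 2, and these are the probes called here. The 42 higher probes (0.131%) ranged in log2 difference (72 h minus 24 h) from 1.005 to 2.43, and the 18 lower ones (0.056%) from -1.003 to -1.87. Without the fold limit, 551 probes (1.71%) were higher and 481 (1.5%) lower at 72 h, and such probes are said to have passed. Of these 1032 probes (3.21%), 584 differed by less than 0.5 on the log2 scale, so that most of the late differences were small. The number that passed depended strongly on the processing. It was 731 with a term for slide, 369 under median scaling, 313 in a fit of the 9 arrays only and 3712 in the values of the authors. Every called probe was well above background on all arrays of the group in which it was higher. All 72 h arrays lay above all 24 h arrays for 37 of the 42 higher probes, and below them for 17 of the 18 lower probes. Over all probes such a separation was found for 5.18%, namely for 2.61% (above) and 2.58% (below). The probes were called on these same arrays, so their separation follows largely from the choice and is a description. The limit of 2-fold fell within a continuous range, with called probes at 1.005 and 1.01 and probes at 0.98 and 0.99 just outside it. With a term for slide, 85 probes were called (58 higher, 27 lower), 43 of them among the 60. With only arrays inside the quality range, which leaves a single 72 h array that is assumed to vary like those of the other groups, 44 were called, 27 of them among the 60. The split into higher and lower calls depended on the scaling of the arrays, being 22 to 18 under median scaling and 394 to 67 with the scanner's processed signals.

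**Figure D1:**
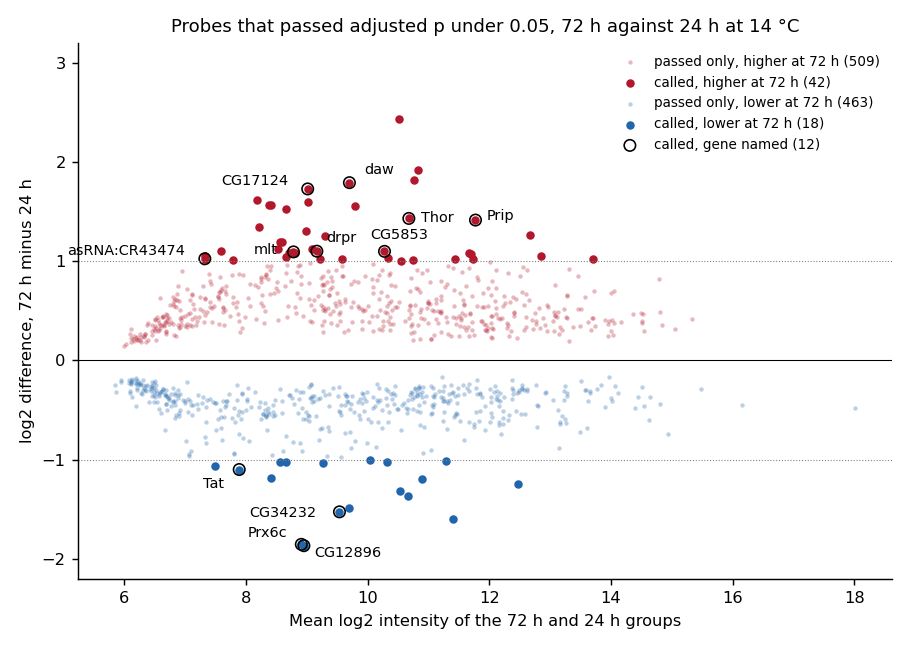
Log2 difference (72 h minus 24 h, vertical axis) against the mean log2 intensity of the 2 groups (horizontal axis) for the 1032 probes that passed. Large points are the 60 called probes, rings mark the 12 of them with a gene symbol, and dotted lines mark the fold limit of 2; most points lie between these lines.

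A gene symbol could be given to 4347 of the 32162 probes, which left 48 of the 60 called probes without a name. The largest difference was found for one of these, with the design accession CO307854. Its log2 intensities were 11.19, 12.21, 11.65 and 11.84 on the 72 h arrays, against 9.54, 9.18, 9.32, 9.11 and 9.32 on the 24 h arrays (log2 difference 2.43, SE 0.23, adjusted p 3.26e-06 in limma). The largest decrease of an unnamed probe, designed for transcript FBtr0086976, was -1.60, and this probe averaged 10.61 ± 0.31 (SD, n = 4) at 72 h and 12.20 ± 0.36 (SD, n = 5) at 24 h. For neither probe did the groups overlap. The 12 called probes with a symbol, 8 higher and 4 lower, represent 12 genes.

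Genes for signaling, translation control, water transport and engulfment were among the higher ones. The dawdle gene (daw) encodes an activin-like ligand of the TGF-beta family. It had log2 intensities of 10.82, 10.46, 10.90 and 10.21 on the 72 h arrays, against 8.78, 8.50, 8.75, 8.9 and 9.10 on the 24 h arrays. This corresponds to a 3.46-fold higher signal at 72 h (log2 difference 1.79, SE 0.17, adjusted p 3.41e-06), with a wide gap between the groups. Against the 25 °C arrays daw was 2.28 higher at 72 h and 0.49 at 24 h.

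Thor encodes the 4E-BP protein, which represses cap-dependent translation and is induced when insulin or TOR signaling is low. Its values were 11.65, 11.38, 11.55 and 10.98 on the 72 h arrays, against 9.80, 9.45, 9.85, 10.12 and 10.58 on the 24 h arrays. Both groups varied, but the lowest 72 h array was still above the highest 24 h array (log2 difference 1.43, SE 0.19, adjusted p 0.000119). Neither at 12 h (0.50, adjusted p 0.13) nor at 24 h (0.30, adjusted p 0.31) did Thor pass against the 25 °C arrays, whereas it was 1.73 above them at 72 h (adjusted p 5.6e-07). Of the 31 measured genes of the study's insulin and TOR list, Thor was the only one that passed between 72 h and 24 h, and the median of that list was 0.04.

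Prip, a water channel of the aquaporin family, rose further after an earlier increase. Its log2 intensities were 12.49, 12.48, 12.62 and 12.34 on the 72 h arrays, against 11.11, 10.99, 11.04, 10.76 and 11.43 on the 24 h arrays, a difference of 1.41 (SE 0.13, adjusted p 3.18e-06). The 72 h arrays were close together, and the lowest of them was clearly above the highest 24 h array. Against the 25 °C arrays Prip stood at 0.78 at 12 h, 1.35 at 24 h and 2.76 at 72 h. The other 3 measured genes of water and osmolyte transport did not pass (Treh 0.23, Gpdh1 0.17 and List -0.07).

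The engulfment receptor drpr (draper), with which phagocytes take up dying cells, had values of 9.5, 9.82, 9.95 and 9.60 on the 72 h arrays, against 8.52, 8.38, 8.69, 8.47 and 9.01 on the 24 h arrays. The groups did not overlap (log2 difference 1.10, SE 0.13, adjusted p 4.3e-05), and the second drpr probe passed too (0.61). As hemocytes use this receptor it was also on the hemocyte marker list, on which the other 2 measured genes, srp and ush, were not higher (-0.10 and -0.07, adjusted p 0.76 and 0.87).

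These 4 genes kept their sign and their side of the adjusted p with a term for slide, with log2 differences of 1.36 (daw), 1.05 (Thor), 1.03 (Prip) and 0.85 (drpr). Within slide 2, the difference between the single arrays was 1.36 for daw, 0.80 for Thor, 1.05 for Prip and 0.81 for drpr. With only arrays inside the quality range, daw (1.41) and Prip (1.27) passed, but Thor (1.02, adjusted p 0.32) and drpr (0.98, adjusted p 0.065) did not.

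The other called genes that were higher at 72 h had no common role. CG17124 had the lowest p of all probes, with 9.81, 10.03, 9.95 and 9.73 on the 72 h arrays, against 8.41, 8.15, 8.13, 7.88 and 8.19 on the 24 h arrays, and very little spread in either group (log2 difference 1.73, SE 0.10, adjusted p 2.11e-08). CG5853, which the study placed on its lipid metabolism list, averaged 10.83 ± 0.15 (SD, n = 4) at 72 h and 9.73 ± 0.24 (SD, n = 5) at 24 h (1.10, adjusted p 7.67e-05), but it did not pass with only arrays inside the quality range (0.96, adjusted p 0.13). At 72 h CG5853 was above the 25 °C arrays (0.63), whereas at 24 h it was below them (-0.47). A second CG5853 probe did not pass between 72 h and 24 h (0.51). The antisense transcript asRNA:CR43474 averaged 7.84 ± 0.42 at 72 h and 6.81 ± 0.20 at 24 h (1.02, adjusted p 0.000174), without overlap.

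mlt, which encodes a relative of tubulin folding cofactors, was the only named called gene whose groups overlapped. Its values were 9.31, 9.61, 9.64 and 8.76 on the 72 h arrays, against 8.26, 7.91, 8.22, 8.0 and 8.80 on the 24 h arrays. The lowest 72 h array lay just below the highest 24 h array (1.09, SE 0.25, adjusted p 0.0166). Without 72 h replicate 2 or 3 mlt no longer passed, the highest adjusted p being 0.068. With only arrays inside the quality range its difference was 0.52 (adjusted p 0.893), and with a term for slide 0.85 (adjusted p 0.0495). At 72 h mlt did not pass against the 25 °C arrays (0.40, adjusted p 0.32), and at 24 h it was lower than these (-0.69). The other 7 called genes that were higher passed in all 9 fits without 1 array.

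**Figure D2:**
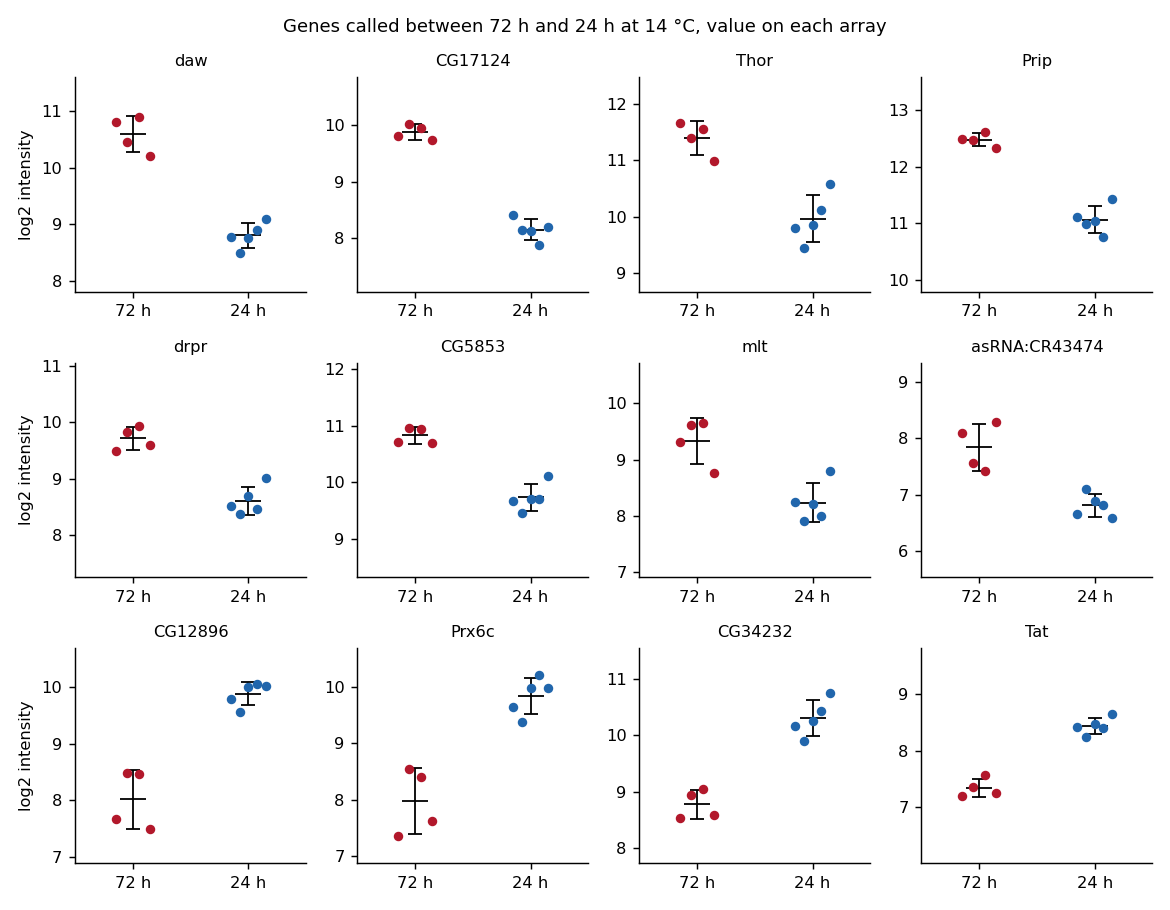
Log2 intensity on each array of the 12 called genes with a symbol, 72 h (red, 4 arrays) left of 24 h (blue, 5 arrays), with the mean and SD in black. Each panel spans the same height on the vertical axis, and mlt is the only gene with overlapping groups.

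Among genes that passed without reaching 2-fold, the largest increases were found for Acsf2 (0.95), Pfk (0.95), CG5321 (0.86), CG8547 (0.85), CG18190 (0.85), Kah (0.85) and CG34305 (0.84). Kah, a zinc finger factor of the Snail family, stood highest above the 25 °C arrays among these, by 3.28 at 72 h and by 2.44 at 24 h. Its values were 10.57, 10.46, 10.45 and 10.06 on the 72 h arrays, against 10.05, 9.53, 9.74, 8.87 and 9.5 on the 24 h arrays. The groups were separate by a narrow margin, and a second Kah probe did not pass (0.18). Kah did not pass without 72 h replicate 1, 2 or 3 or without 24 h replicate 2 or 4 (adjusted p up to 0.083). CG34305 did not pass without 72 h replicate 2 or 3 (adjusted p up to 0.064), nor CG8547 without 72 h replicate 1 (0.064) or with a term for slide (0.62, adjusted p 0.116). A second CG8547 probe did not pass (0.615). ItgaPS4, an integrin alpha subunit for adhesion to the extracellular matrix, was 0.80 higher (SE 0.19, adjusted p 0.024), the only one of 7 measured integrin adhesion genes that passed. This share was 14.3%, against 1.71% of all probes and 3.62% of probes well above background on all 9 arrays that passed as higher. Without 72 h replicate 2 or 3 or 24 h replicate 4 it did not pass (adjusted p up to 0.107). Another ItgaPS4 probe did not pass (0.11). Of the 7 genes 2 had a positive and 5 a negative difference. Zasp52, the other positive one, did not pass (0.62, adjusted p 0.19). Paxillin (Pax, -0.32) and Zyx (-0.02), adaptors of adhesion sites, did not pass.

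The tubulin gene betaTub97EF, an isoform that the study followed, still increased. Its values were 13.88, 13.89, 13.89 and 13.95 on the 72 h arrays, against 13.44, 13.39, 13.43, 13.65 and 13.46 on the 24 h arrays, with no overlap and a nearly constant level among the 72 h arrays (log2 difference 0.43, SE 0.10, adjusted p 0.025). The signal at 72 h was thus 1.34-fold that at 24 h, and on the log2 scale it was 1.75 above the 25 °C arrays at 72 h and 1.32 at 24 h. The gene passed only without 24 h replicate 4 or 5 among the 9 fits that left out 1 array (adjusted p up to 0.063 in the others), and not with a term for slide (0.43, adjusted p 0.25), where the difference was of the same size. Of the 12 other measured tubulin and microtubule genes, none passed by its brightest probe. The differences were 0.26 for alphaTub84D, of which a dimmer probe was higher (0.37, adjusted p 0.00376), and 0.01 for alphaTub84B. A dimmer probe of stai, the stathmin gene whose product destabilizes microtubules, was lower (-0.81, adjusted p 0.0089), with 6.81, 6.29, 6.49 and 6.83 on the 72 h arrays, against 7.49, 7.65, 7.39, 7.46 and 7.09 on the 24 h arrays, whereas its brighter probe did not pass (-0.41, adjusted p 0.057). The dimmer stai probe was lost with a term for slide (-0.59, adjusted p 0.0993).

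Some enzymes of glycolysis were slightly higher at 72 h. Of 16 measured genes on the study's glycolysis list, 3 (18.8%) passed as higher and none as lower, against 1.71% of all probes and 3.62% of probes well above background on all 9 arrays that passed as higher. A positive difference was found for 13. The median of the list was 0.26, against -0.0016 over all probes. Triose phosphate isomerase (Tpi) had log2 intensities of 13.62, 13.38, 13.37 and 13.56 on the 72 h arrays, against 12.98, 12.95, 12.95, 13.08 and 12.90 on the 24 h arrays. The groups did not overlap (0.51, SE 0.09, adjusted p 0.00131), and a second Tpi probe did not pass (0.41). Enolase (Eno) averaged 14.59 ± 0.17 (SD, n = 4) at 72 h and 14.13 ± 0.13 (SD, n = 5) at 24 h (0.47, adjusted p 0.00665), also without overlap. Gapdh2 differed by 0.57 (adjusted p 0.0445), with overlapping groups, and passed in only 2 of 9 fits that left out 1 array. With a term for slide Tpi passed (0.51, adjusted p 0.0116), but Eno (0.44, adjusted p 0.183) and Gapdh2 (0.39, adjusted p 0.156) did not, and with only arrays inside the quality range none of the 3 passed (Tpi 0.59, adjusted p 0.0868, Eno 0.28, adjusted p 0.752, and Gapdh2 0.23, adjusted p 0.918).

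Phosphofructokinase (Pfk), which catalyzes a committed step of the pathway, was measured by 3 probes with differences of 0.47 to 1.08. One of them passed, with 8.94, 9.37, 9.27 and 9.74 on the 72 h arrays, against 8.72, 8.16, 8.66, 8.02 and 8.33 on the 24 h arrays (0.95, SE 0.20, adjusted p 0.00894) and separate groups. The brightest Pfk probe, with the larger difference, did not (1.08, adjusted p 0.18). Lactate dehydrogenase (Ldh, 0.60) and aldolase (Ald, 0.44) did not pass either (adjusted p 0.38 and 0.076). On each 72 h array the median of the list, relative to the mean of the 24 h arrays, was 0.35, 0.39, 0.40 and 0.21, against 0.02, -0.03, -0.004, 0.08 and 0.02 on the 24 h arrays. The 72 h arrays were thus all above the 24 h arrays. Of 33 probes of the list, 5 passed, but 3 with a term for slide and none under median scaling, where the median over probes was still positive (0.15, against 0.23).

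Some lipid genes were higher as well. Of 18 measured genes on the lipid metabolism list 4 (22.2%) were higher and none lower (median 0.16), against the 1.71% of all probes and 3.62% of bright probes given above. Besides CG5853 these were Acsf2, an acyl-CoA synthetase (0.95, SE 0.22, adjusted p 0.019), bgm, which activates very long chain fatty acids (0.61, adjusted p 0.0146, and 0.058 without 72 h replicate 3), and CG6178 (0.39, adjusted p 0.00336, and 0.0747 with a term for slide). A second bgm probe did not pass (0.31). Of 29 probes of the list 4 passed, but 2 under median scaling or without 72 h replicate 3, and none with only arrays inside the quality range. Acsf2 had values of 11.63, 12.01, 11.88 and 11.68 on the 72 h arrays, against 10.85, 10.64, 10.82, 10.69 and 11.25 on the 24 h arrays, all 72 h arrays being above the 24 h arrays. Without 72 h replicate 2 or 3 it did not pass (adjusted p up to 0.072), nor with a term for slide (0.88, adjusted p 0.099). The desaturase Desat1 (0.19) and Baldspot, an elongase (0.19), are examples of members that did not pass.

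On the beta oxidation list 2 of 18 genes (11.1%, against 1.71% of all probes and 3.62% of bright probes) were higher and none lower (median 0.18). The median over its probes, also 0.18, rested on single arrays, being 0.04 without 72 h replicate 4, 0.05 without 24 h replicate 5, 0.08 without 72 h replicate 1, 0.10 without 24 h replicate 1 and 0.11 without 24 h replicate 3. It was 0.05 with the replicate block. Hnf4, a nuclear receptor that activates fatty acid breakdown genes in the fly, had values of 12.49, 12.29, 12.45 and 12.28 on the 72 h arrays, against 12.03, 12.07, 11.83, 11.94 and 11.93 on the 24 h arrays. The increase was small, but the groups were separate (0.42, SE 0.07, adjusted p 0.000696), and it did not pass with a term for slide (0.39, adjusted p 0.088). The other gene was CG5321 (0.86, adjusted p 9.5e-05), which stood 1.89 above the 25 °C arrays at 72 h and 1.02 at 24 h. Second probes of Hnf4 (0.27) and CG5321 (0.21) did not pass between 72 h and 24 h. The carnitine palmitoyltransferase genes whd (0.18) and CPT2 (-0.09), whose products bring fatty acids into mitochondria, did not pass. In the peroxisome list, 2 of 24 genes were higher, Amacr (0.67, adjusted p 0.0156, and up to 0.073 without 72 h replicate 2 or 3) among them, and 2 were lower, CG4860 (-0.59, adjusted p 0.000396) among them. Each share was 8.33%, against 1.71% (higher) and 1.5% (lower) of all probes and 3.62% and 2.98% of bright probes.

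The largest decreases of named genes were those of peroxiredoxins, enzymes that reduce peroxides. CG12896 had log2 intensities of 7.66, 8.47, 8.46 and 7.48 on the 72 h arrays, against 9.80, 9.56, 10.01, 10.05 and 10.02 on the 24 h arrays. Hence its signal was 3.65-fold higher at 24 h (log2 difference -1.87, SE 0.21, adjusted p 2.32e-05), and no array of either group came near the other group. The values of Prx6c were 7.36, 8.55, 8.41 and 7.62 on the 72 h arrays, against 9.64, 9.38, 9.98, 10.20 and 9.98 on the 24 h arrays, a difference of -1.85 (SE 0.26, adjusted p 0.000215). The array-to-array pattern of both probes was alike, with 72 h replicates 2 and 3 higher than 1 and 4. CG12896 and Prx6c are related genes, so that 1 transcript could be read by both probes, which was not tested, and another Prx6c probe did not pass (-0.07). Against the 25 °C arrays neither probe passed at 12 h (-0.59 and -0.52, adjusted p 0.10 and 0.27), and both were lower at 24 h (-2.11 and -2.06) and at 72 h (-3.97 and -3.92). Catalase (Cat, -0.28) and the superoxide dismutase gene Sod (-0.03) did not pass, and CG12896 and Prx6c were the only 2 of 11 measured redox genes that passed. That share was 18.2%, against 1.5% of all probes and 2.98% of bright probes that passed as lower.

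CG34232 also fell in steps. Its values were 8.54, 8.93, 9.05 and 8.58 on the 72 h arrays, against 10.17, 9.90, 10.25, 10.43 and 10.75 on the 24 h arrays, well separated (-1.53, SE 0.15, adjusted p 3.18e-06), and its difference from the 25 °C arrays was -0.63 at 12 h, -1.71 at 24 h and -3.24 at 72 h. With a term for slide the differences were -1.71 for CG12896, -1.69 for Prx6c and -1.80 for CG34232, and within slide 2 they were -1.55, -1.43 and -1.82 for these genes. With only arrays inside the quality range all 3 passed too (-2.40, -2.22 and -1.72).

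A different course was found for genes that were still above the 25 °C level at 24 h and lower at 72 h. The clearest was Tat, encoding tyrosine aminotransferase, the first enzyme of tyrosine breakdown. Its log2 intensities were 7.20, 7.35, 7.57 and 7.24 on the 72 h arrays, against 8.42, 8.24, 8.48, 8.40 and 8.65 on the 24 h arrays. Spread within the groups was small and the groups were far apart (-1.10, SE 0.08, adjusted p 1.81e-07). Tat was 2.49 above the 25 °C arrays at 12 h, 2.16 at 24 h and 1.06 at 72 h, so that at 72 h it was still above the level at 25 °C. A later enzyme of the same pathway, GstZ1, differed in the other direction (0.65, SE 0.15, adjusted p 0.0169, and up to 0.081 without 72 h replicate 2 or 3), and it was still below the 25 °C arrays (-0.77 at 72 h, -1.42 at 24 h). A second GstZ1 probe did not pass between 72 h and 24 h (0.50). On the amino acid catabolism list 2 of 22 genes (9.09%) were higher and 3 (13.6%) lower. Over all probes these shares were 1.71% and 1.5%, and over bright probes 3.62% and 2.98%.

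Hr51, a nuclear receptor, had values of 9.57, 9.69, 10.27 and 9.29 on the 72 h arrays, against 10.44, 10.09, 10.48, 10.96 and 10.92 on the 24 h arrays. The highest 72 h array overlapped the lowest 24 h array (-0.87, SE 0.20, adjusted p 0.0146). At 72 h Hr51 did not pass against the 25 °C arrays (0.26, adjusted p 0.43), whereas it was 1.13 above them at 24 h and 1.34 at 12 h. The virus-induced gene vir-1 (-0.78, adjusted p 0.000828), CG32944 (-0.77, adjusted p 0.013) and the antisense transcript asRNA:CR43465 (-0.80, adjusted p 0.00376) had the same order, above the 25 °C level by 0.39, 0.66 and 0.65 at 72 h and by 1.16, 1.43 and 1.45 at 24 h. CG3376 did not pass against the 25 °C arrays at 72 h (-0.32, adjusted p 0.19) and was 0.51 above them at 24 h, with a difference of -0.83 between 72 h and 24 h (adjusted p 0.00416). Without 72 h replicate 4 Hr51 did not pass (adjusted p 0.0503). Second probes of CG32944 (-0.22) and CG3376 (-0.09) did not pass between 72 h and 24 h.

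Several mitotic genes were lower at 72 h. Of 35 measured genes on the study's M phase list, 9 (25.7%) were lower and 1 was higher, while 30 had a negative difference. The median was -0.21. Over probes well above background on all 9 arrays, 2.98% passed as lower and 53.5% had a negative difference. On the single 72 h arrays the median of the list, relative to the mean of the 24 h arrays, was -0.29, -0.20, -0.22 and -0.27, against 0.09, 0.08, 0.10, -0.20 and -0.06 on the 24 h arrays. The 24 h replicate 4 thus reached the 72 h arrays, and the other 24 h arrays lay above them.

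Klp61F encodes kinesin-5, a motor that separates the spindle poles. It was not on the M phase list but was among the lowest named genes, with 13.20, 13.28, 13.38 and 13.22 on the 72 h arrays, against 13.99, 14.01, 14.10, 13.61 and 14.02 on the 24 h arrays. The 72 h arrays were tightly grouped below all 24 h arrays (-0.68, SE 0.08, adjusted p 4.87e-05), and its second probe also passed (-0.53). With only arrays inside the quality range Klp61F did not pass (-0.73, adjusted p 0.0757). Relative to the 25 °C arrays it was lower at 72 h (-0.65, adjusted p 3.39e-06) and did not pass at 24 h (0.02, adjusted p 0.92).

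Spc25, a subunit of the Ndc80 complex that binds kinetochores to microtubules, had values of 10.37, 10.83, 10.71 and 10.46 on the 72 h arrays, against 11.16, 11.15, 11.18, 10.90 and 11.19 on the 24 h arrays. No overlap was seen (-0.52, SE 0.08, adjusted p 0.000857), and against the 25 °C arrays Spc25 was lower at 72 h (-1.16) and already at 24 h (-0.64). The kinase Cdk1, which drives entry into mitosis, averaged 11.53 ± 0.20 (SD, n = 4) at 72 h and 12.05 ± 0.19 (SD, n = 5) at 24 h (-0.52, adjusted p 0.00277), with overlapping groups, and a probe listed under its older name cdc2 was lower too (-0.46, adjusted p 0.0157). Its partner CycB3 (-0.41, adjusted p 0.00313) did not overlap. The mitotic kinases aurA (-0.40, adjusted p 0.00553) and polo (-0.46, adjusted p 0.0251), the cytokinesis kinesin pav (-0.53, adjusted p 0.0125), the chromosomal passenger protein Incenp (-0.38, adjusted p 0.0146) and Spindly (-0.37, adjusted p 0.0217), a dynein adaptor at kinetochores, were also lower. With a term for slide, Klp61F, Spc25 and Cdk1 passed, but CycB3 (-0.37, adjusted p 0.101) and aurA (-0.31, adjusted p 0.167) did not. Results under the alternatives are not given singly for cdc2, polo, pav, Incenp and Spindly, only as counts over the list.

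Cyclin B (CycB) had 11.27, 12.10, 11.76 and 12.18 on the 72 h arrays, against 12.75, 12.42, 12.84, 12.52 and 12.32 on the 24 h arrays. All 72 h arrays were lower, but they varied (-0.74, SE 0.19, adjusted p 0.04), and CycB passed in only 3 of the 9 fits without 1 array (those without 72 h replicate 2 or 4 or 24 h replicate 5, with adjusted p up to 0.156 in the others) and not with a term for slide (-0.51, adjusted p 0.38). The differences of its 3 probes ran from -0.74 to -0.37. In a wider list of cyclins and cell cycle regulators 5 of 12 measured genes were lower and none higher (median -0.41). The lower share was 41.7%, against 1.5% of all probes and 2.98% of bright probes. Members that did not pass were aurB (-0.48, adjusted p 0.065), CycA (-0.04), CycE (0.09) and stg (0.04), the Cdc25 phosphatase. The one higher M phase gene was cid (0.51, adjusted p 0.0201), the centromeric histone H3 variant, whose difference from the 25 °C arrays was -0.68 at 72 h and -1.19 at 24 h. It was lost with a term for slide, where no M phase probe passed as higher. The same held under median scaling, in a fit of the 9 arrays only and without 72 h replicate 1, 2 or 3.

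The M phase counts depended on the processing more than the medians did. Of 45 probes of the list 11 were lower, but 6 with a term for slide and 2 in a fit of the 9 arrays only. Under median scaling or with the scanner's processed signals 1 was lower. The median over probes stayed negative under every alternative that was run.

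S phase genes showed few differences. Of 37 measured genes, which include replication origin proteins and polymerases, 1 (2.7%) was higher and none lower between 72 h and 24 h. The higher share lay between the 1.71% of all probes and the 3.62% of bright probes, so the count is near that of probes in general. The median of the list was 0.03, with 17 negative differences. Their median difference from the 25 °C arrays was -0.92 at 72 h and already -0.89 at 24 h. The one gene that passed was Orc6, a subunit of the origin recognition complex, with 9.17, 9.56, 9.33 and 9.06 on the 72 h arrays, against 8.38, 8.31, 8.40, 8.56 and 8.92 on the 24 h arrays. All 72 h arrays were higher (0.77, SE 0.13, adjusted p 0.00126), although Orc6 stayed below the 25 °C arrays (-1.11 at 72 h, -1.87 at 24 h). Array medians of the S phase list ran from -0.15 to 0.06 at 72 h and from -0.29 (replicate 4) to 0.13 at 24 h, and the groups overlapped. The sign of the S phase median changed with the processing (-0.06 over probes under median scaling, against 0.03). The histone gene His2B:CG17949 was lower (-0.67, adjusted p 0.000348). Histone genes exist in many near-identical copies that a probe cannot tell apart, so the value belongs to the copies as a whole.

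**Figure D3:**
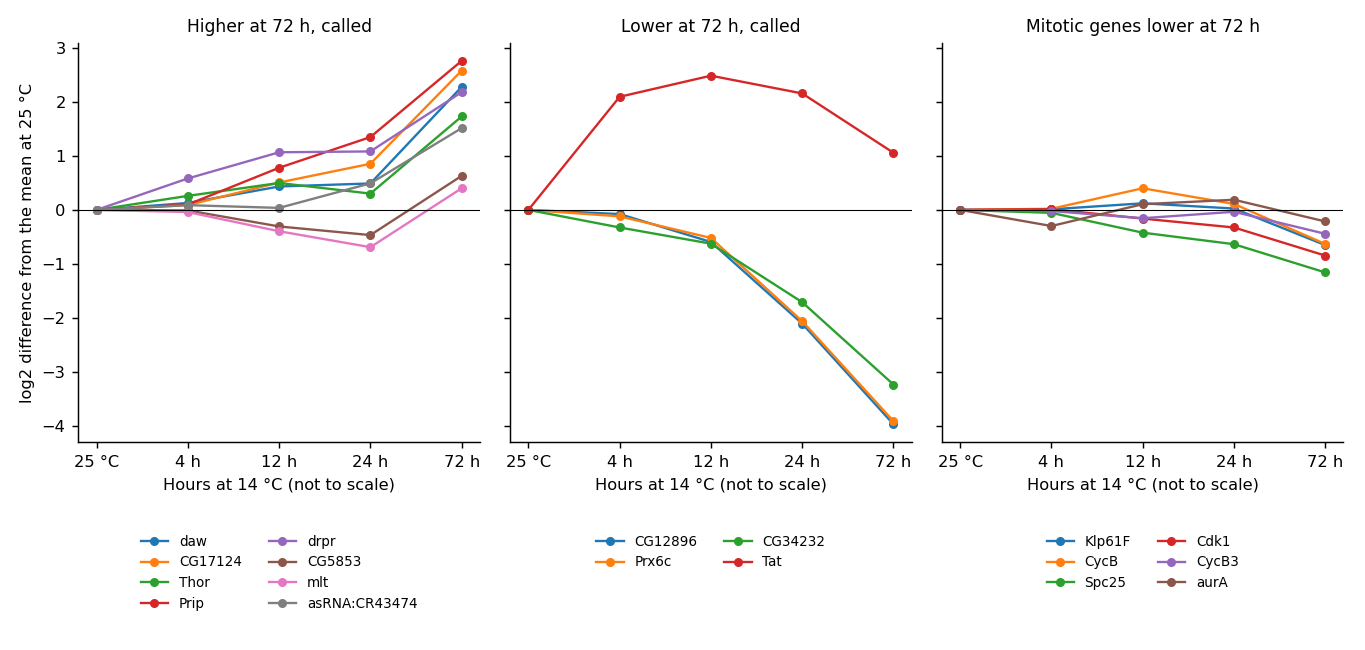
Mean log2 difference from the 25 °C arrays (vertical axis) at 4, 12, 24 and 72 h at 14 °C (horizontal axis, not to scale) for the 8 higher called genes (left), the 4 lower called genes (middle) and 6 mitotic genes (right). Tat peaks at 12 h and is 1.06 above the 25 °C level at 72 h, whereas the means of CG12896, Prx6c and CG34232 are lower at each later time.

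For the time before 24 h, 12 h was compared with the 25 °C arrays, since this comparison shares no array with that of 72 h and 24 h. Over all probes, 6.31% were higher and 5.05% lower at 12 h. Of the 42 probes that were higher at 72 h than at 24 h, 14 (33.3%) were already higher at 12 h, none was lower and 28 did not pass. Of the 18 lower probes, 7 (38.9%) were higher at 12 h, 2 were lower and 9 did not pass. Among the 481 probes that passed as lower without a fold limit, 159 (33.1%) were higher at 12 h and 79 (16.4%) lower. Among the 551 that passed as higher, 92 (16.7%) were higher and 106 (19.2%) lower at 12 h. Both sets therefore held probes that went on in the direction seen at 12 h and probes that turned. The number of the 60 probes that passed at 12 h, 23 in all, was 36 with a term for slide and 10 with only arrays inside the quality range, where a single 12 h array is left. In the order 4, 12, 24 and 72 h, the median differences of the 42 higher probes from the 25 °C arrays were 0.13, 0.34, 0.49 and 1.72, and those of the 18 lower probes were 0.03, -0.22, -0.70 and -1.81. Of the 42 higher probes, 40 were above the 25 °C arrays at 72 h and 22 at 24 h, and of the 18 lower probes, 12 were below them at 72 h and 10 at 24 h. Over all probes, 7.82% were higher and 9.14% lower at 72 h, and 7.52% were higher and 7.89% lower at 24 h. The values at 72 h and 24 h share their arrays with the comparison that chose the probes, so they are a description.

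Heat shock genes mostly had lower values, and how many passed depended on the model. Of 14 measured heat shock entries, 13 had a negative difference (median -0.35). As lower, 1 (7.14%) passed, against 1.5% of all probes and 2.98% of bright probes. Of the 19 heat shock probes 2 were lower, but 6 with a term for slide and 5 with one for scan date. The median over these probes was -0.37, and -0.21 without 72 h replicate 4. Several entries are near-identical Hsp70 copies, which are not independent. Hsp27, a small chaperone, had values of 8.76, 8.61, 8.92 and 8.28 on the 72 h arrays, against 9.31, 9.12, 9.21, 9.14 and 9.37 on the 24 h arrays, with separate groups (-0.59, SE 0.11, adjusted p 0.00308). Hsp23 (-0.96, adjusted p 0.25) and an Hsp70Aa and Hsp70Ab probe (-0.85, adjusted p 0.49) had larger differences that did not pass. The spread among arrays was wide, with list medians of -0.39, -0.58, 0.06 and -0.46 on the 72 h arrays, against -0.21, -0.22, -0.18, 0.48 and 0.11 on the 24 h arrays. Hsp26 (-0.38, adjusted p 0.66) and DnaJ-1 (-0.59, adjusted p 0.17), an Hsp40 cochaperone, had overlapping groups. DnaJ-1 passed with a term for scan date (-0.69, adjusted p 0.038) and in the values as processed by the authors (-0.59, adjusted p 0.0164).

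Of the other genes that the study followed, Pvf3, a ligand of the PVR receptor tyrosine kinase, was 0.31 higher (SE 0.24, adjusted p 0.63), and the ETS factor Ets97D was 0.41 lower (SE 0.19, adjusted p 0.34). The difference of Pvf3 was 0.96 with a term for slide and passed there (adjusted p 0.0144), and 0.88 within slide 2. Against the 25 °C arrays Pvf3 was 1.75 higher at 72 h and 1.44 at 24 h.

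Most central processes differed little. None of 32 proteasome genes and none of 19 genes of the TCA cycle passed (medians -0.08 and 0.03). Of 78 cytoplasmic ribosome genes, RpL7-like alone passed (0.37, adjusted p 0.0437), and it did so in 2 of 9 fits without 1 array and not with a term for slide (0.31, adjusted p 0.188). On the oxidative phosphorylation list 3 of 85 genes were lower and none higher (median -0.10), a share of 3.53% that is near the 2.98% of bright probes. These were the complex I subunit gene ND-AGGG (-0.53, adjusted p 0.000826) and the ATP synthase subunit genes sun (-0.50, adjusted p 0.00703) and ATPsynO (-0.17, adjusted p 0.0245). ND-AGGG passed by both of its probes, and its difference from the 25 °C arrays was -1.66 at 72 h and -1.13 at 24 h. ATPsynO passed in only 4 of 9 fits without 1 array and not with a term for slide (-0.20, adjusted p 0.306). Among 66 mitochondrial ribosome genes, mRpL33 (0.31) was higher, and mRpS22 (-0.33) and mRpS26 (-0.28) were lower. The shares of 1.52% (higher) and 3.03% (lower) lay below or near the 3.62% and 2.98% of bright probes. Without 1 array mRpL33 passed in 4 and mRpS26 in 2 of 9 fits. With a term for slide none of these 3 passed, with differences of 0.17 for mRpL33 (adjusted p 0.622), -0.20 for mRpS22 (adjusted p 0.257) and -0.09 for mRpS26 (adjusted p 0.897), and within slide 2 mRpS26 had the other sign (0.04). Of 18 autophagy genes Atg8a passed, which encodes the ubiquitin-like protein of autophagosome membranes. Its values were 14.32, 14.06, 14.26 and 14.07 on the 72 h arrays, against 13.85, 13.86, 13.71, 13.62 and 13.85 on the 24 h arrays, a 1.32-fold increase with separate groups (0.40, SE 0.07, adjusted p 0.00187). The increase of Atg8a did not pass with a term for slide (0.28, adjusted p 0.33), and a second Atg8a probe did not pass (0.14). Of 2 measured members of the JAK/STAT pathway, Su(var)2-10, the PIAS-type inhibitor, was lower by 1 of its 2 probes (-0.46, adjusted p 0.0398, up to 0.151 without 1 array and 0.375 with a term for slide), the other probe having a difference of 0.13.

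**Figure D4:**
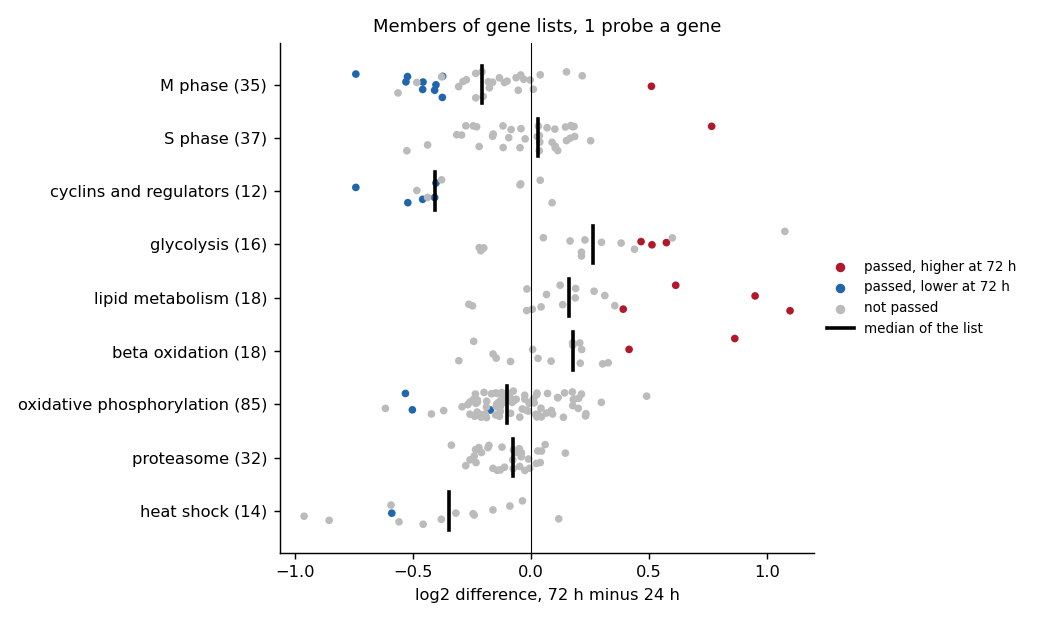
Log2 differences (72 h minus 24 h, horizontal axis) of the members of 9 gene lists, each gene by its brightest probe on the list, with the number of genes in brackets. Red and blue points passed as higher and lower, grey points did not pass, and bars are medians; M phase and cyclin medians lie at -0.21 and -0.41, the S phase median at 0.03 and the glycolysis median at 0.26.

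Cells at 72 h have also been longer in culture. The study stated that the cell density of t12_25 cultures was like that after the longest cold exposure. Hence t12_25 was compared with 0 h, which shares no array with 72 h or 24 h. With limma none of the 32162 probes passed, 1303 (4.05%) having an unadjusted p under 0.05. The 42 probes higher at 72 h had a median difference of -0.16 (t12_25 minus 0 h), with 10 positive (23.8%). The 18 lower ones had a median of 0.07, with 12 positive (66.7%), against 50% of all probes. An unadjusted p under 0.05 was found for 4 of the 42 (9.52%) and 3 of the 18 (16.7%), larger shares than the 4.05% of all probes. For M phase genes the median was -0.03 (16 of 35 positive), and for glycolysis genes -0.12 (3 of 16 positive). Heat shock entries had the largest median difference of the lists compared, -0.18 (2 of 14 positive), with the sign of their late difference. The S phase (-0.04), cyclin, lipid metabolism and oxidative phosphorylation lists (-0.03 each) had small medians. Single genes gave 0.09 for daw, -0.15 for Thor, -0.18 for Prip, 0.30 for CG12896, 0.04 for Tat and -0.18 for Klp61F. All adjusted p values of these 6 genes were 1, with 3 arrays against 3. Density at 14 °C and the time at 14 °C cannot be told apart in this design.

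Slide could be examined only in part, because slide 2 alone held both groups. All 42 higher probes had a positive and all 18 lower probes a negative difference within slide 2 (medians 1.03 and -1.29), within the first scan date (1.11 and -1.32) and within the second (1.01 and -1.16). These arrays are among those that chose the probes, so the shared sign was largely set by that choice and is a description. With a term for slide 37 of the 42 and 18 of the 18 passed the adjusted p, all with the same sign. Of 58 genes followed by name that passed, 38 also passed with a term for slide. With only arrays inside the quality range 13 of the 58 passed, namely daw, CG17124, Prip, asRNA:CR43474, CG12896, Prx6c, CG34232, Tat, His2B:CG17949, CG4860, ND-AGGG, Spc25 and Hsp27, in a fit with a single 72 h array. The other 45 did not.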

How the data were processed

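Per the labels, total RNA of S2R+ cells was hybridized to single-color Agilent Drosophila arrays, 1 culture per array, and Agilent Feature Extraction 10.7.3.1 was used for quantification. The intensity values deposited per array are medians of spot and local background pixels without normalization, and a processed signal from which the scanner software had subtracted background. The log2 values in the table deposited by the authors were background-corrected, quantile-normalized and adjusted by surrogate variables, and were used as an alternative.

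Spot intensities of the 23 arrays were background-corrected (normexp, offset 50, with local backgrounds above 3 times the array median set to that median, which concerned 23 spot values), quantile-normalized over gene spots and log2-transformed. Spots flagged as outliers were left out, and replicate spots of a probe were summarized by their median. limma 3.58.1 in R 4.3.3 was used for a fit over all arrays with 1 term per group, two-sided moderated tests and Benjamini-Hochberg adjustment over 32162 probes. A difference of 1 on the log2 scale is a 2-fold change of signal, which can understate that of RNA for dim probes. The script was tested on simulated data. The number of arrays limits the precision. Every adjusted p in the text is from limma.

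Gene symbols came from annotation tables of the study, used for names only, and from RefSeq. Genes were named if they were among the 15 highest and 15 lowest of those called or passed, the leading genes of a list, or followed by the study. The lists are process lists of the study and pathway lists from general knowledge. Genes and lists were chosen with earlier results of these data known, and the lists of the study hold probes that it found expressed. Members other than these that are given as examples were chosen after their values were seen. The sequence-based motif search that had been planned was not run. No column of sample values was left unused (0 columns).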

Additional observations from a re-analysis of the deposited data

Results flagged for a closer look

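In 8 of 124 gene and group combinations (6.45%) 1 array lay far from the others of its group. This is near the rate of about 1 in 20 that chance alone flags. The combinations reuse the same 9 arrays, so they are not independent. The gap to the nearest array, as a share of the range of the group, is given for each. At 72 h, asRNA:CR43465 was high on replicate 3 (7.53, the nearest array being at 7.14, share 0.849), and Ets97D was low on replicate 1 (9.95 and 10.60, share 0.849). At 24 h, replicate 4 was low for the mitotic genes Spc25 (10.90 and 11.15, share 0.882) and Klp61F (13.61 and 13.99, share 0.775) and high for betaTub97EF (13.65 and 13.46, share 0.717). Replicate 2 of 24 h was low for nab, a transcriptional cofactor gene (9.69 and 10.14, share 0.86), and for GstZ1 (9.63 and 10.02, share 0.719), and replicate 5 of 24 h was high for sun (13.63 and 13.39, share 0.72).

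The 24 h replicate 4 also had the lowest median of the M phase and S phase lists among the 24 h arrays. Without it 15 of 45 M phase probes were lower at 72 h, against 11 with it, and the median over probes was -0.35, against -0.29.

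Negative control spots, which match no fly transcript, were 0.648 brighter on the log2 scale at 72 h than at 24 h, with 3 of 4 arrays of 72 h above all arrays of 24 h. The part of this difference in the results was not tested.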

How the results depend on the processing

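The 60 called probes kept their sign under all alternatives that were run, which used the arrays that chose the probes. The 60 calls (42 higher, 18 lower) became 1032 (551 and 481) with no fold limit, 36 (27 and 9) with uncapped backgrounds, 133 (81 and 52) with a normexp offset of 0 and 461 (394 and 67) with processed signals, where the median of all probes shifted by 0.238. Higher calls numbered 22 under median scaling and 25 with only arrays inside the quality range. Leaving out 1 array gave 50 (without 24 h replicate 4) to 71 calls, at least 46 of them among the 60. In a fit of the 9 arrays only, 44 probes were called (29 higher, 15 lower), all among the 60. With 72 h replicate 4 alone, the lone array was assumed to vary like those of the other groups. The number of the 60 that passed at 12 h against 25 °C, 23, was 38 in the values as processed by the authors, 36 with a term for slide, 10 inside the quality range and 14 on the first scan date, a setting chosen after seeing the data. Of the probes on gene lists 56 passed, against 33 with an offset of 0, 21 with processed signals, 14 under median scaling, 171 in the values of the authors, 90 with a term for scan date, 19 in a fit of the 9 arrays only, 12 inside the quality range and 34 on the first scan date. The causes were not tested.

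Replicate numbers did not pair the arrays, since the deviations of same-numbered arrays correlated at -0.41, -0.78, 0.52 and 0.58. With the replicate block 66 probes were called (48 higher, 18 lower), 54 of them among the 60, and 92 list probes passed. With slide as a random block (correlation 0.362) 63 were called. For single genes, 1338 values under alternatives stayed on their side of the threshold, 271 no longer passed and 3, of DnaJ-1 and Pvf3, passed only there, all with the same sign. The motif search was not run. Few arrays, uneven slides and dim probes limit the precision, and small differences may have been missed.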
